A study of Mus musculus with 6 samples.

Results

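The secondary and tertiary granule genes of neutrophils were examined in 6 bulk RNA libraries of mouse bone marrow LSK cells. LSK stands for a sort on absent lineage markers and on Sca-1 and Kit, which enriches blood stem cells together with the multipotent progenitors that follow them. The set is defined by gene name and role with no threshold on measured values, but it was drawn up with earlier results of these data known, so the counts below describe it and are no independent evidence. It holds 10 genes, Ngp, Ltf, Camp, Lcn2, Chil3, Fcnb, Mmp8, Mmp9, Cd177 and Retnlg, and all 10 were found among the 16403 genes of the deposited table. In the group called LIP, C57BL/6 mice had carried a ligature that induces periodontitis for 7 days. The NL group consisted of C57BL/6 mice without a ligature. Each group had 3 libraries, every library came from the sorted cells of 3 pooled mice, and all marrow was taken on day 7. The age and the sex of the mice were not stated in the labels. The series title places the study in work on trained immunity induced by periodontitis.

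Neutrophils fill their granules in sequence as they mature. Primary granule proteins such as myeloperoxidase are made by promyelocytes, the proteins of secondary (specific) granules by myelocytes, and those of tertiary (gelatinase) granules later still. Transcription factors of the C/EBP family, above all C/EBP epsilon, are known for driving the secondary granule genes in the marrow. Stem and progenitor cells normally carry little RNA of these late genes.

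Library totals lay between 17780900 and 18841100 counts, and 12564 genes passed the filter on low counts and were tested. In the whole table, 14.1% of tested genes were called higher in LIP and 15.8% lower (29.9% in either direction), at an adjusted p below 0.05 in edgeR's quasi-likelihood test. Over all tested genes the log2 fold change had a median of -7.21e-04. Kit, one of the sorting markers, stood at 165 ± 1.18 TPM in NL and 204 ± 7.07 TPM in LIP, and Ly6a, which encodes Sca-1, at 72.6 ± 1.55 and 75.8 ± 4.62 TPM (SD, n = 3 per group). In the edgeR fit Kit rose by 0.18 and Ly6a stood at -0.07, not called. Of the lineage markers, the neutrophil gene Ly6g had between 0 and 3 counts in a library and the T-cell gene Cd3e between 6 and 22, with a rise of 1.10 (adjusted p of 0.00912, edgeR). Itgam, which encodes the myeloid integrin chain CD11b, stood at 15.9 TPM in NL and 22.2 TPM in LIP. RNA of both selecting markers was thus present in every library, beside RNA of several lineage genes.

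Granule gene RNA made up a larger share of the LSK libraries in LIP than in NL. Of the 10 genes 9 were called higher in LIP and none lower, beside 14.1% of all tested genes called higher. Their median log2 fold change was 0.76, and the range ran from 0.65 in Chil3 to 1.18 in Retnlg. The estimate of each of these 9 was at least 1.5-fold, whereas 1.14% of all tested genes were called higher with an estimate of that size. In the same 9 genes every LIP library lay above every NL library, as it did in 19.9% of all tested genes. The remaining gene, Mmp9, was the least abundant and was not called. In bulk RNA, more cells of a type and more RNA per cell cannot be told apart.

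**Figure D1:**
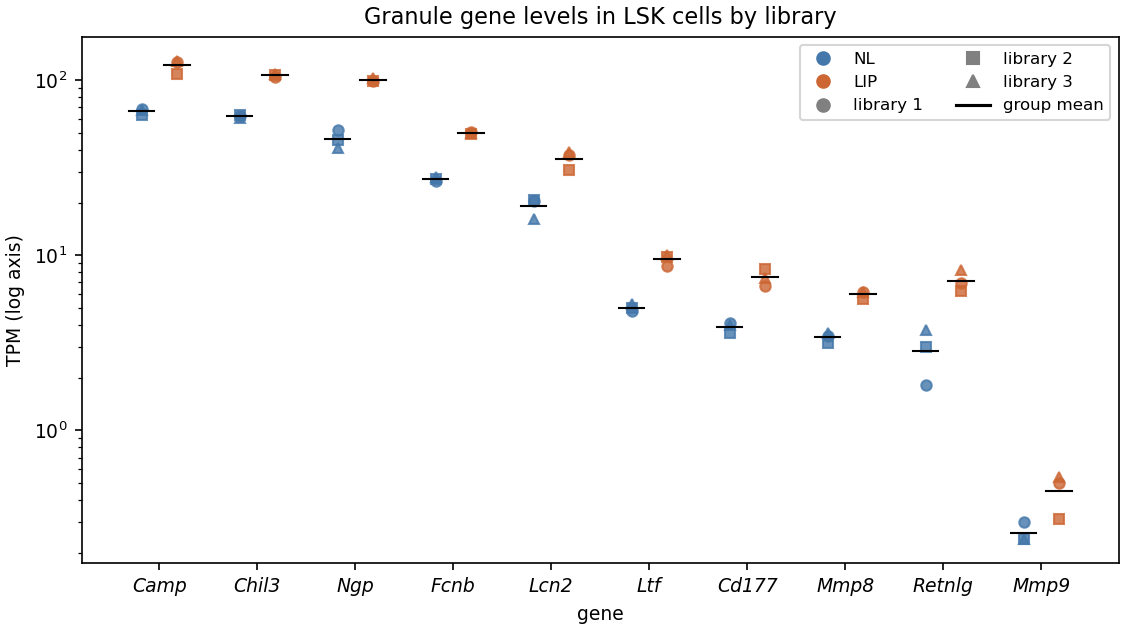
Level of each granule gene in TPM (a share of transcripts that takes gene length into account, logarithmic axis) in the 3 NL and 3 LIP libraries, with a point for each library and a line at the group mean. The LIP points lie above the NL points in all 10 genes on this scale, and Mmp9, at 0.26 TPM in NL, is far below the others.

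On the TPM scale, which takes transcript length into account and so allows levels of different genes to be compared, the 10 genes spanned a wide range. In NL the order was Camp at 66.3 ± 2.95, Chil3 at 62.2 ± 0.936, Ngp at 46.3 ± 5.49, Fcnb at 27.2 ± 0.735 and Lcn2 at 19.0 ± 2.499 TPM (SD, n = 3). The lower part of the order was Ltf at 5.02 ± 0.219, Cd177 at 3.89 ± 0.271, Mmp8 at 3.42 ± 0.236, Retnlg at 2.85 ± 0.968 and Mmp9 at 0.26 ± 0.0346 TPM. The libraries of Camp and Chil3 overlapped in NL, as did those of Cd177 and Mmp8 and those of Mmp8 and Retnlg, so these neighbours in the order were not separated. In LIP the first 7 places were the same, from Camp at 122 ± 10.8 TPM to Cd177 at 7.49 ± 0.854 TPM, and Retnlg, at 7.13 ± 0.995 TPM, stood above Mmp8, at 6.00 ± 0.349 TPM. The libraries of Cd177 and Retnlg overlapped in LIP, so these places were not separated. Summed over the 10 genes, the level went from between 231 and 244 TPM in the NL libraries to between 426 and 462 TPM in the LIP libraries. On this scale the median of all tested genes moved by 0.12 (log2, from log2(TPM + 0.1)), so ratios of TPM exceed the fitted fold changes given below. Mpo alone, the myeloperoxidase gene of primary granules, stood at 2722 ± 23.3 TPM in NL.

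Among the antimicrobial proteins of secondary granules, Ngp showed the firmest change. Ngp encodes neutrophilic granule protein, a cystatin-related protein (chromosome 9, 110419808 to 110423012, GRCm38). Scaled to library size, it was measured at 33.9, 30.2 and 27.0 CPM in NL-1 to NL-3 and at 59.8, 58.3 and 62.1 CPM in LIP-1 to LIP-3. The LIP libraries lay close together and well above the highest NL library. The log2 fold change was 0.98 ± 0.06 (SE) with an adjusted p of 1.01e-19 in edgeR's quasi-likelihood test, the 9th smallest p of all tested genes.

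Camp encodes cathelicidin, the precursor of the antimicrobial peptide CRAMP (chromosome 9, 109847377 to 109849456). It was measured at 21.0, 20.0 and 21.3 CPM in the NL libraries and at 36.4, 30.6 and 37.3 CPM in the LIP libraries. LIP-2 was the lowest of the LIP libraries but remained above all NL libraries, and the gene rose by 0.74 ± 0.07 on the log2 scale (adjusted p of 4.15e-13, edgeR). Ltf, which encodes the iron-binding protein lactoferrin (chromosome 9, 111019292 to 111042766), was measured at 7.80, 8.12 and 8.54 CPM in NL and at 13.2, 14.3 and 14.997 CPM in LIP. It rose by 0.80 ± 0.09 (adjusted p of 3.95e-10, edgeR), with no overlap between the groups.

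Lcn2 encodes lipocalin 2, which binds bacterial siderophores and so withholds iron (chromosome 2, 32384637 to 32387739). Its NL libraries were at 9.39, 9.76 and 7.57 CPM and its LIP libraries at 16.1, 12.97 and 16.7 CPM. Here NL-3 was low within its group and LIP-2 low within its own, and the rise was 0.78 ± 0.10 on the log2 scale (adjusted p of 3.46e-08, edgeR). Fcnb encodes ficolin B, a pattern-recognition lectin of myeloid cells (chromosome 2, 28076479 to 28084910). Between 16.1 and 17.0 CPM were measured in NL and between 27.1 and 28.5 CPM in LIP, the narrowest groups after Chil3 in relative terms. The rise of Fcnb was 0.75 ± 0.07 (adjusted p of 6.13e-14, edgeR).

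The bases just upstream of these genes are shown because C/EBP factors are known regulators of secondary granule genes and 9 of the 10 genes were called higher in LIP. Promoter windows of 250 bases before the transcription start were taken from RefSeq (GRCm38.p6) and matched 9 genes, all but Mmp9. Some windows run past an earlier start of the gene in GENCODE M21 or RefSeq. Before that start lie only 89 bases for Camp and 189 for Ngp, but all 250 for Chil3, Mmp8 and Retnlg. Matches were counted over the whole window. The motif letters TTNNGNAA, a loose form of the C/EBP site, were searched on both strands, together with the stricter form TTGCNNAA, which is contained in the loose one. The loose letters were present in 8 of the 9 windows, all but Camp, and the strict letters in 6, those of Ngp, Ltf, Lcn2, Fcnb, Mmp8 and Retnlg. Among all RefSeq windows of the same length the shares were 36.8% and 9.6%, and among windows of genes in the deposited table with a GC content in the range of these 9 genes (36.4% to 59.2%) they were 42.2% and 11.6%. Of the 9 primary granule genes with a window, 3 held the loose letters and 0 the strict ones. Of 26 windows of other late neutrophil genes, 16 held the loose letters and 6 the strict ones.

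The sequences of 4 genes with a strict match are given 5′ to 3′ on the strand of the gene, as far as the first base of the gene in GENCODE M21 or RefSeq, whichever comes first. Capitals mark matches to the loose C/EBP letters on either strand. The 4 genes were picked for display after the matches were seen. In the order below, the stretches lie at chr9:110419558-110419746 on the plus strand, chr9:111019042-111019270 on the plus strand, chr2:28084911-28085128 on the minus strand and chr9:7558179-7558428 on the plus strand.
Ngp: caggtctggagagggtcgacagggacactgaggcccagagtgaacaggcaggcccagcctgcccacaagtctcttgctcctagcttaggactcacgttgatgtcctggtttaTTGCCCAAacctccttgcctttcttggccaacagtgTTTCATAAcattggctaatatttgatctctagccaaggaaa
Ltf: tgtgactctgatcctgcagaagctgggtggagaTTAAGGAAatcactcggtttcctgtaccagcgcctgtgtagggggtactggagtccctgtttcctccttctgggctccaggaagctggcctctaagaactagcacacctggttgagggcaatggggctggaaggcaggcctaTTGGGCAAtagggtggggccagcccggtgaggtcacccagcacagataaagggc
Fcnb: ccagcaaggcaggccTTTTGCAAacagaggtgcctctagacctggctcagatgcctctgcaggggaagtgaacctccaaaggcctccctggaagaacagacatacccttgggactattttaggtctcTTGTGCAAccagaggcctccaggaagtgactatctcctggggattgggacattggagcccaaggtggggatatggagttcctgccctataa
Mmp8: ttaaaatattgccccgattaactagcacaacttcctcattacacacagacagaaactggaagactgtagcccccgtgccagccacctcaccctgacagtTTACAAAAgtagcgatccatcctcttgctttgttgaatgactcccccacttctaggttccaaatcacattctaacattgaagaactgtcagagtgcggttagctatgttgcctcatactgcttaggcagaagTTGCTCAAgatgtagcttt
Counted from the transcript start that ends the RefSeq window, the strict letters began at position -138 in Ngp (TTGCCCAA), where another strict match at -11 lies outside the stretch shown. In Ltf they began at -75, in Mmp8 at -19, and in Fcnb at -235 and -123. The PU.1 letters GAGGAAG were found in the windows of Lcn2 and Mmp8, 2 of 9, against 10.6% of all RefSeq windows. They were found in 5 of 9 primary granule windows and 9 of 26 windows of other late neutrophil genes. The TATA letters TATAAA were found in the window of Cd177 alone, 1 of 9, against 12.4% of all RefSeq windows. In the primary granule and other late neutrophil lists they were found in 2 of 9 and 8 of 26 windows. These are matches of letters, and no binding was measured.

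Of the granule metalloproteinases, Mmp8 rose and Mmp9 was not called. Mmp8 encodes the neutrophil collagenase of secondary granules (chromosome 9, 7558429 to 7568486). It was measured at 5.01, 4.60 and 5.24 CPM in NL and at 8.35, 7.27 and 8.26 CPM in LIP, without overlap. The log2 fold change was 0.68 ± 0.12 (adjusted p of 6.86e-06, edgeR). Mmp9 encodes gelatinase B, the name-giving enzyme of tertiary granules (chromosome 2, 164940326 to 164955850), and had 10, 8 and 8 counts in NL and 16, 10 and 18 counts in LIP. After scaling, LIP-2, at 0.523 CPM, lay below NL-1, at 0.569 CPM, so the groups overlapped. The log2 fold change of Mmp9 was 0.66 with an adjusted p of 0.178 (edgeR), and its 95% interval of -0.08 to 1.39 includes both no change and the size seen in the other 9 genes. At the depth of these libraries 3 counts correspond to between 0.157 and 0.171 CPM, a limit that covers counting error only.

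The remaining genes of the set encode surface and secreted proteins. Cd177 encodes a membrane-anchored glycoprotein of neutrophils (chromosome 7, 24743983 to 24760334). It was measured at 6.60, 5.67 and 6.43 CPM in NL and at 10.01, 11.5 and 11.0 CPM in LIP. Unlike most of the set it was highest in LIP-2, and it rose by 0.80 ± 0.10 on the log2 scale (adjusted p of 1.38e-08, edgeR). Chil3 encodes the chitinase-like protein Ym1 (chromosome 3, 106147554 to 106167564). Its libraries were at 55.1, 56.3 and 54.3 CPM in NL and at 85.9, 85.5 and 89.2 CPM in LIP. This was the tightest pair of groups, and the rise of 0.65 ± 0.04 (adjusted p of 3.35e-19, edgeR) was the smallest among the 9 called genes.

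Retnlg encodes resistin-like gamma, a small secreted protein of neutrophils (chromosome 16, 48872608 to 48874498). It had 10, 17 and 21 counts in NL and 37, 34 and 46 counts in LIP. Every LIP library exceeded every NL library, yet the NL libraries spread widely, from 0.569 to 1.195 CPM. The fitted log2 fold change of 1.18 ± 0.25 (adjusted p of 1.91e-04, edgeR) was the largest of the set, with a 95% interval of 0.68 to 1.69. Without NL-1, the lowest library, it was 0.94 with an adjusted p of 0.00865 (edgeR).

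**Figure D2:**
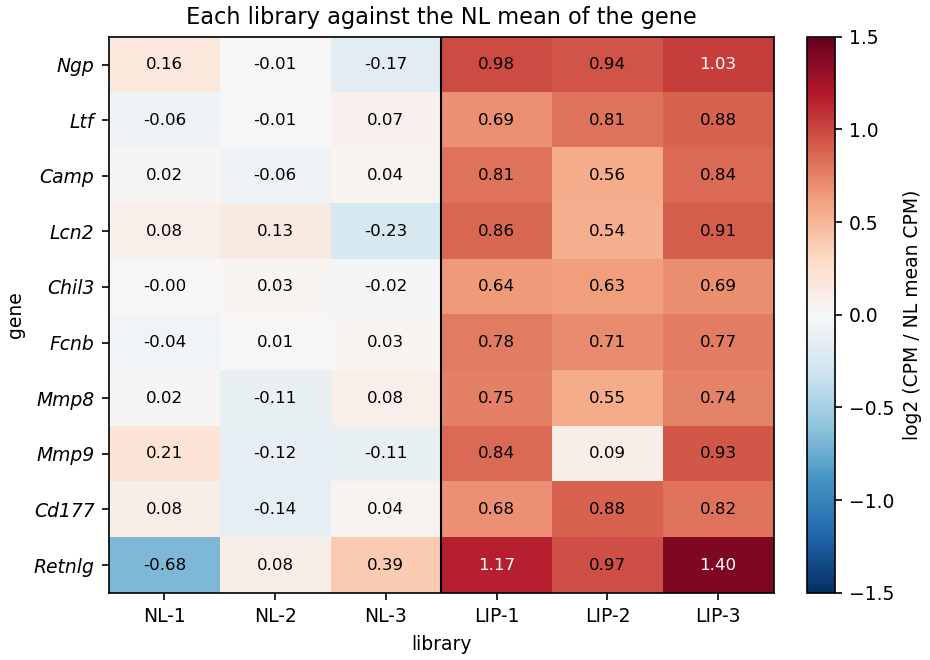
Each granule gene in each library as log2 of its CPM over the mean of the NL libraries (colour and printed value), with the NL libraries on the left and the LIP libraries on the right of the black line. All LIP values are above 0, and LIP-2 has the lowest LIP value in 8 of the 10 genes.

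Within the LIP group the libraries were ordered alike for most of these genes. LIP-2 was the lowest LIP library in 8 of the 10 genes, all but Ltf and Cd177, and LIP-3 was the highest in 7. Some margins were narrow, such as 58.3 CPM in LIP-2 against 59.8 CPM in LIP-1 for Ngp, and 85.5 against 85.9 CPM for Chil3. How often LIP-2 was lowest over all tested genes was not counted. The median log2 ratio to the NL mean was 0.80 in LIP-1, 0.67 in LIP-2 and 0.86 in LIP-3. No single NL library was lowest in more than 4 genes, and the NL medians lay between -0.01 and 0.03. In the other late neutrophil list, described below, LIP-2 was the lowest of the LIP libraries in 9 of 20 genes, and in the primary granule list in 5 of 10. Without LIP-2 the same number of granule genes, 9, were called, and Mmp9 stood at 0.88 with an adjusted p of 0.0932 (edgeR).

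Ngp and Chil3 are described together, without a test, because their intervals did not overlap. The pair was picked for that difference, so the ratio below only describes it. The 95% interval of Ngp, 0.87 to 1.10 on the log2 scale, lay above that of Chil3, 0.57 to 0.74. The ratio of Ngp to Chil3 CPM was 0.615, 0.536 and 0.498 in NL and 0.697, 0.682 and 0.696 in LIP, so that it was higher in every LIP library. Of the other called genes, Retnlg had a fold change of 2.27, larger than that of Ngp. Ltf, Camp, Lcn2, Fcnb, Mmp8 and Cd177 had fold changes between 1.61 and 1.74, each estimate inside the intervals of the other 5. The estimate of Chil3, 0.65 on the log2 scale, lay inside the intervals of these genes too, so Chil3 was not separated from them.

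**Figure D3:**
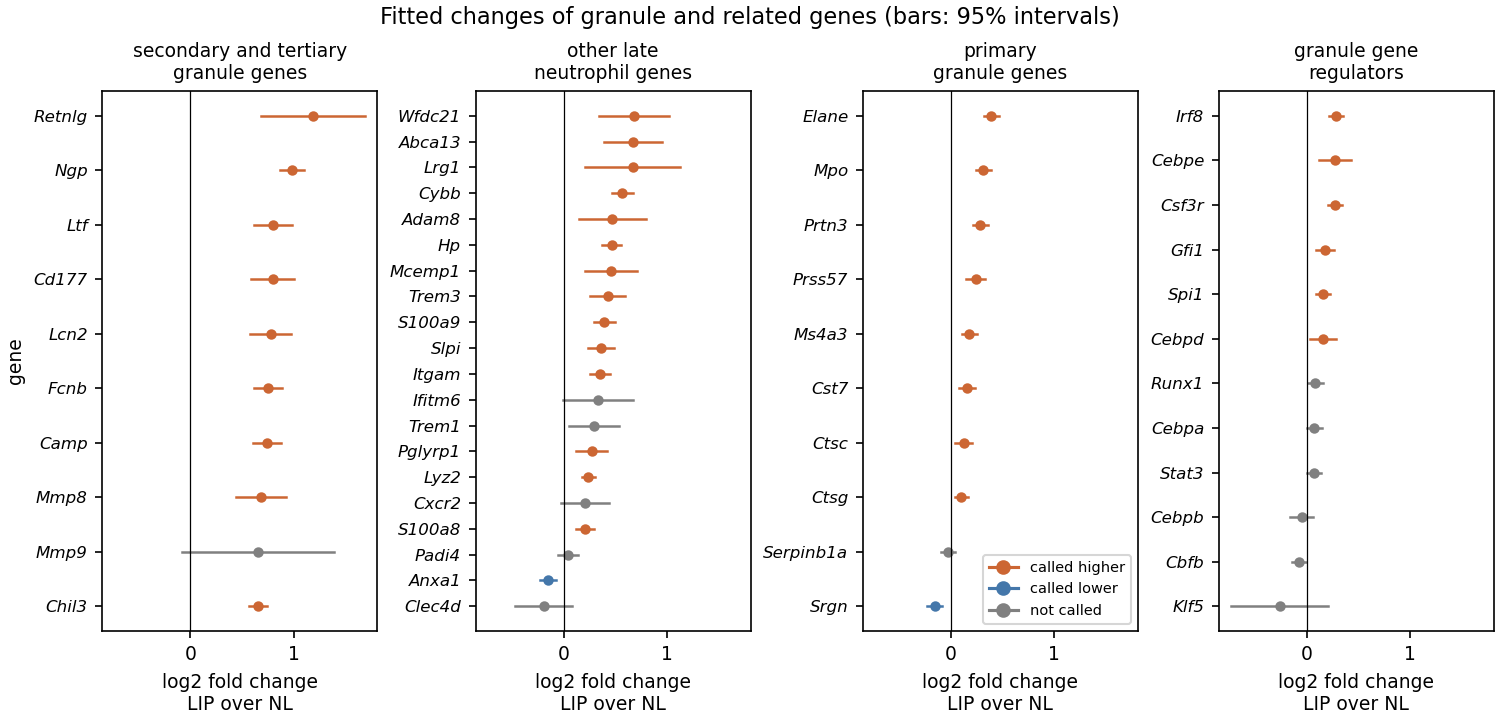
Log2 fold change, LIP over NL, of every tested gene in 4 lists, with bars for the 95% intervals and colour for the call at an adjusted p below 0.05 in edgeR. The secondary and tertiary granule genes lie between 0.65 and 1.18, and the primary granule genes between -0.16 and 0.39.

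Other genes of late neutrophil development, listed by role, mostly changed in the same direction, and 3 of them by as much as the smaller changes among the granule genes. Of 20 tested genes 14 were called higher and 1 lower, beside 14.1% and 15.8% of all tested genes. Their median was 0.36 on the log2 scale. The 3 called at 1.5-fold or more were Wfdc21, Abca13 and Lrg1, at 0.68, 0.67 and 0.67, each above Chil3 at 0.65. The call of Lrg1 was lost without NL-1 (0.48, adjusted p of 0.150, edgeR), LIP-1 (0.62, 0.0704) or LIP-2 (0.62, 0.0747), and in DESeq2 (adjusted p of 0.146). By TPM the most abundant were Lyz2, which encodes lysozyme, S100a8 and S100a9, which encode the subunits of calprotectin, Anxa1, and Hp, which encodes the secondary granule protein haptoglobin. Lyz2 rose by 0.24, S100a8 by 0.21, S100a9 by 0.40 and Hp by 0.47. Anxa1, which encodes the anti-inflammatory annexin A1, fell by 0.15, but its call was lost with an offset for transcript length (adjusted p of 0.0844, edgeR). The 5 genes that were not called were Padi4, Trem1, Clec4d, Cxcr2 and Ifitm6, with log2 fold changes of 0.05, 0.30, -0.19, 0.21 and 0.34. Trem1 was called without LIP-2 (0.37, adjusted p of 0.0312, edgeR) or without LIP-3 (0.34, adjusted p of 0.0471), and Ifitm6 without LIP-2 (0.49, adjusted p of 0.0321) or with the length offset (0.55, adjusted p of 0.0110). A further 8 genes of the list had too few counts to be tested, Ly6g, Olfm4, Orm1, Stfa1, Fpr1, Fpr2, Mmp25 and Ceacam10. Among these, Ly6g, Stfa1 and Ceacam10 were at 0 in at least 1 library, while Olfm4, a secondary granule gene, had 4 or 5 counts in each NL library and 10 or 11 in each LIP library.

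The primary granule list held the most abundant of these genes, and its estimated changes were smaller than those of the 10 granule genes. Of 10 tested genes 8 were called higher and 1 lower, beside 14.1% and 15.8% of all tested genes. Their median was 0.17 on the log2 scale, and none of the 8 reached 1.5-fold. Abundance varied within the list, from Mpo down to Ctsc at 26.3 TPM and Prss57 at 36.7 TPM in NL, below Camp, Chil3 and Ngp. Of the neutral serine proteases, Elane rose by 0.39 and Prtn3 by 0.29, and Mpo rose by 0.32. Ctsg, which encodes cathepsin G, rose by 0.10, a call that was lost without NL-2 (0.10, adjusted p of 0.0581, edgeR) or without LIP-3 (0.08, adjusted p of 0.0657). Srgn, which encodes the granule proteoglycan serglycin, fell by 0.16, although it stood at -0.04 with an offset for transcript length (adjusted p of 0.377, edgeR) and at 0.02 with offsets for transcript length and GC content together (adjusted p of 0.647). Serpinb1a, an inhibitor of these proteases, stood at -0.03 and was not called. The change of each list was fitted in the same model, and the difference between the lists was not tested.

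In the list of granule gene regulators, made of transcription factors and the receptor gene Csf3r, the called changes were small in size. The list was not split by whether a gene, such as Irf8, promotes or restrains granule genes. Of 12 tested genes 6 were called higher and none lower, beside 14.1% of all tested genes called higher and 15.8% lower. The median was 0.12 on the log2 scale, and none of the 6 reached 1.5-fold. Cebpe, the gene of C/EBP epsilon, had 275, 284 and 290 counts in NL and 317, 358 and 424 counts in LIP. It rose by 0.28 ± 0.08 (adjusted p of 0.00445, edgeR), and LIP-3 carried much of this, since without it the change was 0.17 with an adjusted p of 0.119. In DESeq2 the adjusted p of Cebpe was 0.0515. The granulocyte factor gene Gfi1 rose by 0.18, Spi1, the gene of PU.1, by 0.16, Irf8 by 0.28, and Csf3r, the receptor gene for the neutrophil growth factor G-CSF, by 0.27. Cebpd rose by 0.16, a call that was lost in 8 of 18 alternative fits. These included the fits without NL-1 (0.14, adjusted p of 0.144), NL-2 (0.17, 0.0728), NL-3 (0.17, 0.0721), LIP-1 (0.13, 0.182) or LIP-3 (0.15, 0.107), all by edgeR. Cebpa stood at 0.08, Cebpb at -0.05, Runx1 at 0.09, Klf5 at -0.26, Stat3 at 0.07 and Cbfb at -0.07, none of them called, and Runx1 was called without LIP-1 (0.12, adjusted p of 0.0261, edgeR). Scaled by total counts alone, Cebpa, Runx1 and Stat3 were called higher (adjusted p of 0.00875, 0.00641 and 0.00613, edgeR), as they were in both limma fits on TPM, so that 9 regulators were called in these fits. Cbfb was called lower with the length offset (-0.08, adjusted p of 0.0480, edgeR).

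**Figure D4:**
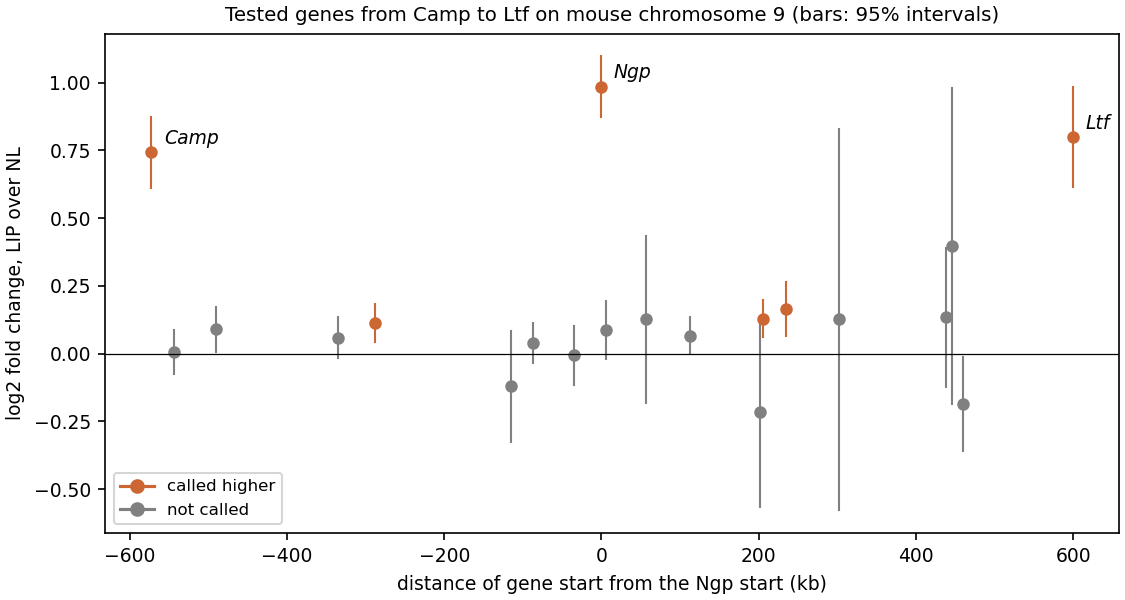
Log2 fold change, LIP over NL, with 95% intervals for the tested genes from Camp to Ltf on chromosome 9, placed by the distance of their start from that of Ngp in kb. Camp, Ngp and Ltf lie between 0.74 and 0.98, and the 17 genes between them lie between -0.22 and 0.40.

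Camp, Ngp and Ltf lie on the same stretch of chromosome 9, so their neighbours were examined. The start of Camp is 572 kb and that of Ltf 599 kb from the start of Ngp. Between Camp and Ltf 17 other genes were tested, of which 3 were called higher, near the 14.1% of all tested genes, and none lower. The 3 were Smarcc1, Nbeal2 and Ccdc12, at 0.11, 0.13 and 0.17. Klhl18, the closest tested gene to Ngp with its start 6.12 kb away, stood at 0.09 with an adjusted p of 0.234 (edgeR). Within 250 kb of any of the 10 genes, 75 other genes were tested, with a median of 0.07. Of these 16 were called higher and 8 lower, beside 14.1% and 15.8% of all tested genes. The highest estimate among the 17 was that of Tmie, 0.40 with a 95% interval of -0.19 to 0.98, and it was not called.

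Members of the same protein families were mixed. A list of 19 relatives was drawn up after the values of the 10 genes were seen, 15 of them were in the table and 8 were tested. Of these 3 were called higher, Chil1, Mmp14 and Mmp19, at 1.37, 0.48 and 0.40 on the log2 scale, beside 14.1% of all tested genes. Chil1, a chitinase-like relative of Chil3, had 6, 6 and 7 counts in NL and 14, 20 and 19 counts in LIP. Fcna, the ficolin gene of macrophages and closest relative of Fcnb in the list, stood at -0.10 with a 95% interval of -0.45 to 0.24, an interval that lies below that of Fcnb. All 10 granule genes had whole estimated counts in all libraries.

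Markers of other cell types are given because they moved in the same libraries. The counts below stand beside 14.1% of all tested genes called higher and 15.8% called lower. In the monocyte and macrophage list 9 of 14 tested genes were called higher and 1 lower, and its summed level went from between 829 and 854 CPM in the NL libraries to between 1076 and 1112 CPM in LIP. In the B-lineage list 7 of 11 rose and none fell, with sums of 96.1 to 100.0 CPM in NL and 119 to 124 CPM in LIP. Of 9 T and NK genes 5 rose and none fell, with sums of 155 to 165 CPM in NL and 177 to 191 CPM in LIP. Of 8 megakaryocyte and platelet genes 5 rose and none fell, with sums of 188 to 204 CPM and 213 to 223 CPM. Of 13 eosinophil, mast cell and basophil genes 5 rose and 3 fell (481 to 491 CPM and 499.99 to 520.1 CPM), and of 10 erythroid genes 2 rose and 5 fell (1356 to 1378 CPM and 1196 to 1248 CPM). No tested marker of these lists was at 0 in any library. On the log2 scale the B-lineage median was 0.41 and those of the T and NK and the monocyte lists 0.34. The megakaryocyte median was 0.32, the eosinophil, mast cell and basophil median 0.13 and the erythroid median -0.08. Markers called higher at 1.5-fold or more were Cd3e (1.10), Ppbp (1.03), Vpreb3 (0.92), Fn1 (0.85), Pax5 (0.74), Epx (0.63) and Ebf1 (0.60). Among 14 stem cell identity genes 3 rose (21.4%) and none fell, with a median of 0.06. For comparison, the sum of the 10 granule genes went from between 149 and 156 CPM to between 249.97 and 271 CPM. The part of any of these cell types in the granule gene result was not tested.

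The genes whose pattern over the 6 libraries was most like the mean of the 10 were taken from 11403 tested genes whose log2 CPM averaged 1 or more. By Pearson correlation they were Rpn2, Pcnx3, Mefv, Trmt6, Elane and Grk6, with coefficients from 0.993 to 0.998 over 6 libraries. As many as 357 genes exceeded a coefficient of 0.95. Such a coefficient largely follows the direction of the difference between the groups, whatever its size, so the order among them is a description. On the log2 scale Rpn2 stood at 0.12, Pcnx3 at 0.22, Grk6 at 0.13 and Trmt6 at 0.10, the last not called (adjusted p of 0.0856, edgeR). Elane rose from 815 to 1069 CPM, and Mefv, which encodes pyrin, an inflammasome sensor of granulocytes and monocytes, from 8.23 to 11.5 CPM. Once the group means were removed, Camp followed the mean of the other granule genes most closely over the 6 libraries, with a coefficient of 0.92, while Cd177 had -0.40. Ngp, Retnlg and Ltf had -0.01, 0.01 and 0.12. Lcn2, Chil3, Fcnb, Mmp8 and Mmp9 had between 0.39 and 0.70.

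**Figure D5:**
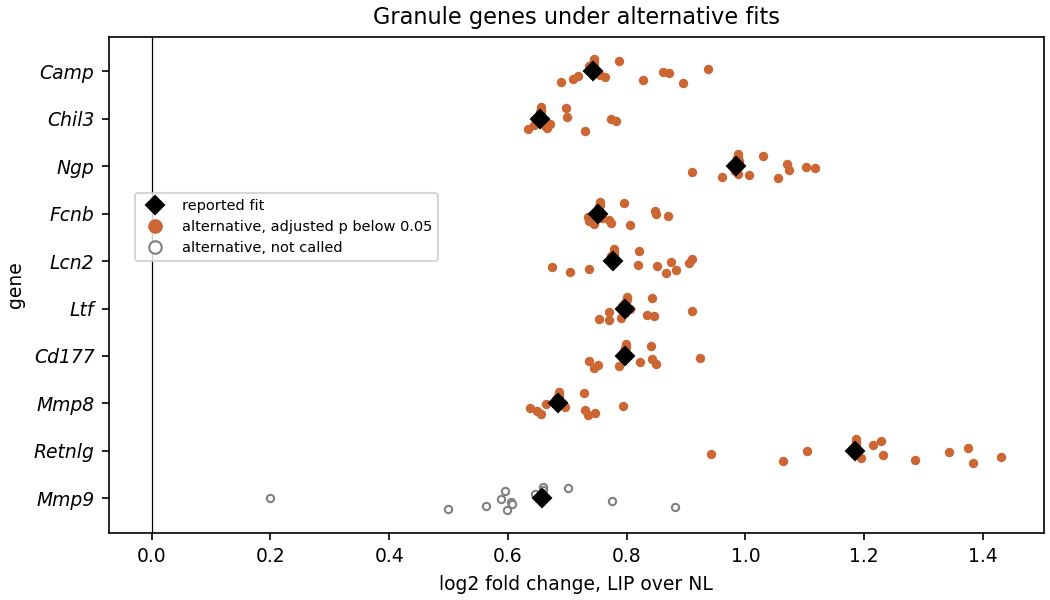
Log2 fold change, LIP over NL, of each granule gene in the reported edgeR fit (black diamond) and in the alternative fits (circles, filled where the adjusted p was below 0.05). In 9 genes every alternative with a p-value was called higher, and in Mmp9 none of 16 was called, with values from 0.20 to 0.88.

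The direction of all 10 genes was the same in every alternative fit that gave a value. Ngp ranged from 0.91 to 1.12 over 18 alternatives, Camp from 0.69 to 0.94, Ltf from 0.75 to 0.91, Lcn2 from 0.67 to 0.91 and Fcnb from 0.73 to 0.87. Chil3 ranged from 0.63 to 0.78, Mmp8 from 0.64 to 0.79, Cd177 from 0.74 to 0.92 and Retnlg from 0.94 to 1.43, the last over 17 alternatives. The highest adjusted p in any of these fits was 0.00865, for Retnlg.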

How the data were processed

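The authors deposited 1 table with estimated counts, FPKM and TPM per gene and library, as its column headers name them. Estimated (expected) counts were rounded to whole numbers. In a library, between 86.3% and 86.8% were whole as deposited. The deposited FPKM served for effective transcript lengths only, and the authors' 6 columns of group means were not used. The submitters' processing notes name STAR, HTSeq and GRCm38, with no role or version. Which tool made the estimates was not stated. Per the labels' protocols, polyA-selected libraries were read as 100 bp pairs.

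Genes that passed filterByExpr were tested with edgeR 4.0.16 (R 4.3.3): TMM scaling, robust quasi-likelihood fit, group as the only term, Benjamini-Hochberg adjustment over 12564 genes. CPM values are TMM-scaled. Alternatives used DESeq2 1.42.0, limma 3.58.1, other scaling and filters, a replicate block, length offsets (lowess, span 0.3) and leaving out each library. An offset for length and GC content together was added after seeing the data. Procedures were tested on simulated counts. Replicates of a group differed by more than sampling noise (chi-square per degree of freedom 1.87 to 2.77). The members and lists were chosen with earlier results of these data known. Named genes were the 10 members, all regulators, the 5 most abundant primary and other late genes by TPM in NL, members of counts of 5 or fewer, and the 6 genes most like the members. Kit, Ly6a, Cd3e, Itgam, Serpinb1a, Prss57, Ctsc, Olfm4 and the other untested genes, the chromosome 9 neighbours and the family relatives were chosen outside this rule, after values were seen. So were the markers of other cell types named for a call at 1.5-fold or more. One result is not reported here because its item is withheld.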

Additional observations from a re-analysis of the deposited data

How the results depend on the processing

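The count of granule genes called higher was 9 in the reported fit, 8 in DESeq2, which gave Retnlg and Mmp9 no adjusted p, and 9 in the other 17 alternatives. Over all genes, 3760 were called, and 2376 in DESeq2. The median log2 fold change of the granule genes was 0.76, and 0.89 with limma on log2(TPM + 0.1), a scale on which the median of all tested genes was 0.12. Of all calls, 1776 of 3760 were higher in the reported fit, 2756 of 4057 with total counts alone and 4657 of 5199 with limma on log2(TPM + 1), and 4642 of 5189 on log2(TPM + 0.1). Leaving out each library gave 2987 to 3397 calls over all genes, 9 granule genes called higher each time, and granule medians from 0.72 to 0.81. It gave 6 to 8 primary granule genes, 12 to 15 other late neutrophil genes and 4 to 6 regulators called higher. Of the regulators, 6 were called higher in the reported fit, 9 with total counts alone or on either TPM scale and 4 in DESeq2. The fits with 9 also called more of all 12564 tested genes higher, as given above, and DESeq2 called 1091 of 11619 higher. Srgn turned from -0.16 to 0.0206 with the length and GC offset, and the cause was not tested. The labels do not say whether replicate numbers pair the libraries. Correlations of deviations were 0.03, -0.02 and -0.11 for the same-numbered pairs and between -0.11 and 0.13 for the others. With 3 libraries per group these values cannot exclude a pairing. With the replicate block, 3729 genes and 9 granule genes were called, with a granule median of 0.76. Counts of 8 to 18 per library go with the wide interval of Mmp9.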
